A study of Drosophila melanogaster with 3 samples.

Results

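The genes described here encode cuticle proteins, and they were taken by symbol from the Ensembl annotation of the dm6 assembly: every protein-coding gene whose name starts with Cpr, Lcp or Edg followed by a digit, or with Ccp84, Acp65 or Pcp. The rule took 97 of the 13945 coding genes on the 6 chromosome arms used, among them 70 Cpr, 15 Lcp, 7 Ccp84 and 3 Edg genes, Acp65Aa and Pcp. Neighbouring cuticle genes at most 20000 bp apart were joined into clusters, which gave 14 clusters with 73 genes and left 24 single genes. The data came from chromatin immunoprecipitation and sequencing of whole fly embryos aged 0 to 14 h, males and females pooled. They came from one transgenic line in which the DNA-binding protein BEAF-32 carries a green fluorescent protein tag at its C terminus (BEAF-32-GFP, also labelled BEAF-32-eGFP). An antibody against the tag recovered the chromatin, which had been sonicated to 200 to 800 bp, and the labels give 3 biological replicates of this single group. There was no second condition, so cuticle genes were compared with all coding genes of the same libraries, as descriptions without a test.

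BEAF-32 is a boundary protein of flies: it binds DNA through a zinc finger at copies of the string CGATA, is found mostly beside the starts of broadly active genes, and is known for separating neighbouring chromatin domains. Cuticle proteins form the insect exoskeleton together with the polysaccharide chitin. Most of the genes named Cpr carry the Rebers and Riddiford consensus, a chitin-binding stretch. Lcp stands for larval, Pcp for pupal and Acp for adult cuticle protein, and Edg genes were named for their dependence on the moulting hormone ecdysone. These genes are used in the epidermis at particular stages, many lie in tandem arrays that arose by duplication, and a whole embryo holds many other cell types. In such a mixture, binding in few cells and weak binding in many cells cannot be told apart.

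The deposited list of peaks that passed the irreproducible discovery rate (IDR) procedure held 6070 summits, a summit being the position of highest signal in a peak region. Genes with such a summit at most 500 bp from a start, whichever of their starts it was, are called bound here. The relaxed lists, which the authors made as input for that procedure and which hold many weak regions, had 30000 summits for the pooled libraries and 26497, 30000 and 30000 for replicates 1, 2 and 3. The authors named the pooled relaxed list as peaks and background, so a weak summit in it need not be a site of binding. The IDR summits were exactly the strongest of the pooled relaxed list, down to a signal of 139, against a median signal of 579 in the IDR list and 30.3 in the pooled relaxed list. Signal is the value per peak deposited by the authors, on a scale that is not stated. The sources used here do not give read totals, so the depth is unknown.

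Sequences at summits beside the 65A, 65E, 76B and 84A clusters, chosen after their values were seen, are shown as examples of flanking summits with and without CGATA. The first 5 lines are the bases 60 bp to either side of the summit (40 bp for the last of the 3 with TATCGATA), all on the forward strand, and capitals mark CGATA or its reverse complement TATCG, which overlap in the palindrome TATCGATA.
65E cluster, high-coordinate edge, chr3L:7094205-7094325, intergenic: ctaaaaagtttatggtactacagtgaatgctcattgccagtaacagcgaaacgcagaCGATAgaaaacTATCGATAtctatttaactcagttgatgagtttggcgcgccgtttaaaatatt
76B cluster, low-coordinate edge, chr3L:19488425-19488545, intergenic: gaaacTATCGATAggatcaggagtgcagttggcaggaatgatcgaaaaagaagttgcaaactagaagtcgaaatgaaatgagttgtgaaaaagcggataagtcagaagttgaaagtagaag
76B cluster, high-coordinate edge, chr3L:19552295-19552375, intergenic: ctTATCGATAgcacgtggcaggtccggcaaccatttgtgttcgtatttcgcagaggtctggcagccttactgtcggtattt
65A cluster, low-coordinate edge, chr3L:6125329-6125449, coding exon of l(3)mbn: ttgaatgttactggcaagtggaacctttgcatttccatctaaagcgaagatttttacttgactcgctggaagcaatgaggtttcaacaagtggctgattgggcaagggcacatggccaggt
84A cluster, low-coordinate edge, chr3R:6672458-6672578, intron of lab: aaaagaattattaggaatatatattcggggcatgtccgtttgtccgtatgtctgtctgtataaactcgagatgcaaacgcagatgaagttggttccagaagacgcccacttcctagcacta
The next 4 lines are the 200 bp before the outermost starts of 4 cuticle genes, read in the direction of transcription. They can be set against the flanking summits. The 4 are among the 7 unbound cuticle genes with at least 2 copies of CGATA within 200 bp to either side of the outermost start. The other 3 are not shown.
Cpr67Fa2 (chr3L:10891514-10891713, forward strand): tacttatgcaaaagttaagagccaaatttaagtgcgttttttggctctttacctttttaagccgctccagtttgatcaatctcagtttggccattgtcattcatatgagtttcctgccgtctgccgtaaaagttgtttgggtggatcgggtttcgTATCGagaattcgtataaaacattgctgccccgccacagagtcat
Cpr76Bb (chr3L:19519449-19519648, forward strand): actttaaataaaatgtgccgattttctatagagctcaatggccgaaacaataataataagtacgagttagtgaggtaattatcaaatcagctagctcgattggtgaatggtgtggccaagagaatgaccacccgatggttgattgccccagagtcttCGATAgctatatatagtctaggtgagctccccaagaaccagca
Cpr78Ca (chr3L:21292801-21293000, reverse strand): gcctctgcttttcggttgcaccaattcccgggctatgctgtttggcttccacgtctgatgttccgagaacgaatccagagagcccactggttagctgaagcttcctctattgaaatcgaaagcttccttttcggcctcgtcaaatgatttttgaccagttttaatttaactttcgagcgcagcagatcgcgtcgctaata
Cpr78E (chr3L:21666981-21667180, reverse strand): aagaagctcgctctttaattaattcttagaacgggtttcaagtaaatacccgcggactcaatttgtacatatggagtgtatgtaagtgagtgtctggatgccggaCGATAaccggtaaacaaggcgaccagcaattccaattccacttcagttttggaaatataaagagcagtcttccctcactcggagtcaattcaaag
The bases are from the RefSeq genome of dm6. The edge shown for 65E holds 3 copies of CGATA in this stretch and each edge at 76B holds 2, while the stretches shown for 65A and 84A hold none. These are single edges and not clusters as a whole: within 100 bp of the summit at the opposite edge there were 0 copies at 65E, 1 at 65A and 1 at 84A. The stretches before Cpr67Fa2, Cpr76Bb and Cpr78E hold a single copy each and that before Cpr78Ca holds 0, and the other copies near these 4 starts lie downstream.

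Of the 97 cuticle genes, 1 (1.03%) had an IDR summit at a start, against 43.7% of all coding genes. The 6070 strongest regions of each library gave 1, 0 and 1 cuticle genes in replicates 1, 2 and 3, beside 42.9%, 39.5% and 42.2% of all coding genes. As shares this was 0.687% ± 0.595 of cuticle genes and 41.5% ± 1.77 of all coding genes (SD, n = 3), so the gap between them was many times the spread between libraries. Genes of one cluster are neighbours and share summits, so the 97 genes are not independent observations.

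**Figure D1:**
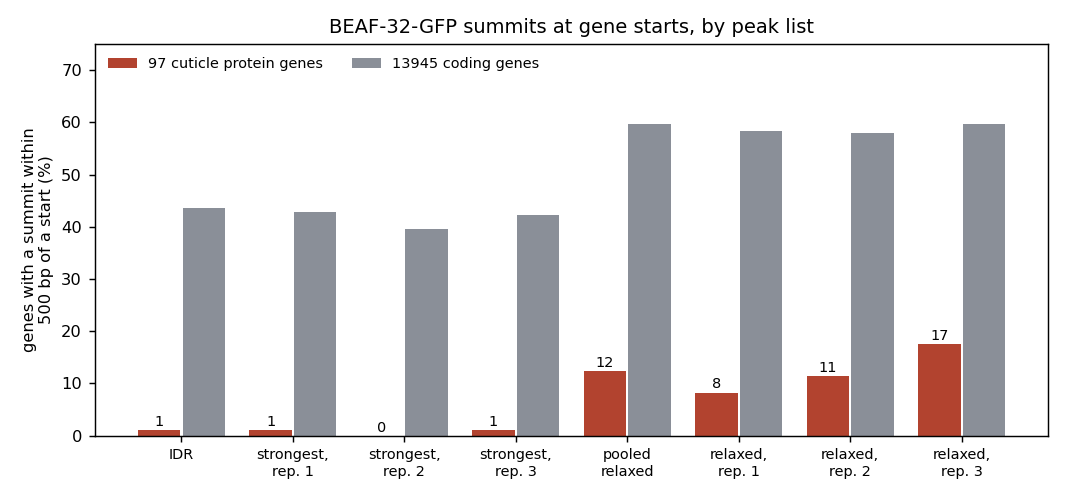
Share of genes, in percent, with a summit within 500 bp of a start in each peak list, for the 97 cuticle protein genes (red, number of genes above the bar) and all 13945 coding genes (grey). The red bars stay at or below 1 gene in the IDR list and in the strongest 6070 regions of each replicate, and at 8 to 17 genes in the relaxed lists.

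The bound gene was Lcp9, a single larval cuticle protein gene (FBgn0025578) on 2R at 24779979 to 24780428. Its IDR summit, at 24780904, lay 476 bp from the Lcp9 start and 13 bp from the start of CG3594, which is transcribed away from Lcp9. The summit had signal 327 and rank 4131 of 6070, and the replicate regions that hold it ranked 4242, 5061 and 4909 with signals of 119.9, 100.4 and 101. In replicate 2 the summit of this region lay 515 bp from the Lcp9 start, which is why that library counted no cuticle gene among its strongest regions. On its other side Lcp9 was flanked by a summit 80 bp away, with signal 680.5, at 2 bp from the start of egg, which encodes a histone methyltransferase. Lcp9 is thus a gene of under 1 kb between bound starts of both neighbours, and its call rests on a summit close to the 500 bp limit. The next nearest was Cpr60D, with a summit at 989 bp, well beyond the 500 bp limit. That summit had signal 3126 and lay 3 bp from the start of ND-19, which encodes a subunit of mitochondrial complex I.

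Distances to the nearest IDR summit were long for clustered cuticle genes and shorter for single ones. The median distance from a start was 14585 bp for the 97 cuticle genes (476 to 65877 bp), against 1990 bp for all coding genes. It was 16341 bp for the 73 clustered genes and 6026 bp for the 24 single genes. Within 5000 bp of an IDR summit lay 13 cuticle genes (13.4%), against 60.5% of all coding genes. At 20000 bp the shares were 68% and 80.4%, and at 50000 bp they were 97.9% and 92.9%. The cuticle genes were therefore seldom close to a summit, and also seldom farther than 50000 bp from one.

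**Figure D2:**
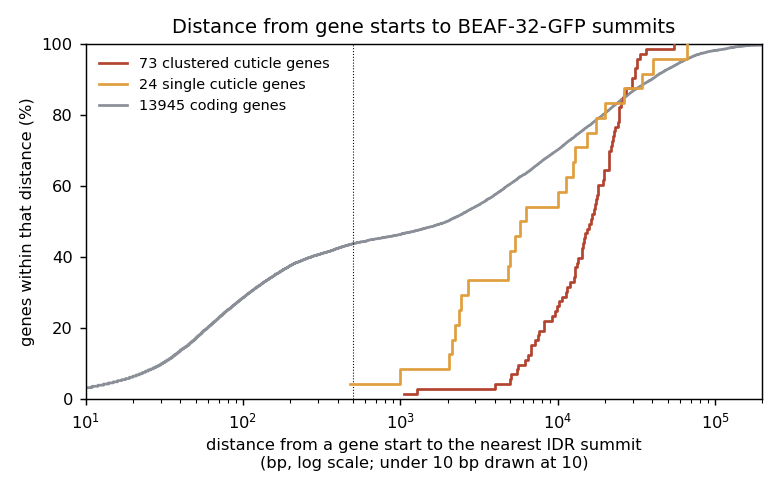
Cumulative share of genes (percent) by the distance in bp from a gene start to the nearest IDR summit, on a log axis, for 73 clustered cuticle genes (red), 24 single cuticle genes (orange) and all 13945 coding genes (grey); the dotted line is the 500 bp limit. The red curve starts at 1061 bp and passes its midpoint at 16341 bp, whereas the grey curve has 43.7% of genes within 500 bp.

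Summits of the relaxed lists, strong or weak, were also less common at cuticle genes than at all coding genes. In the pooled relaxed list 12 cuticle genes (12.4%) had a summit at a start, against 59.7% of all coding genes. That list contains the IDR summits, so the 8328 coding genes counted include the 6092 bound ones, as the 12 include Lcp9. The share for weak summits alone, among unbound genes, was not computed, so the contrast above cannot be read as one of weak summits. The relaxed lists of replicates 1, 2 and 3 gave 8, 11 and 17 cuticle genes, against 58.4%, 57.9% and 59.6% of all coding genes. Their mean share was 12.4% ± 4.72 for cuticle genes and 58.6% ± 0.9 for all coding genes (SD, n = 3). A relaxed summit in any replicate was found at 27 cuticle genes (27.8%, against 68.4% of all coding genes), and in every replicate at 2 (2.06%, against 50.1%). Of those 27 genes, 20 (74.1%) had it in 1 replicate, whereas 73.2% of all coding genes with any relaxed summit had it in all 3. The coding genes include many with strong summits, so this is not a comparison of weak summits. Of pooled relaxed summits below the IDR limit, anywhere in the genome, 43% had a summit within 100 bp in 1 replicate. Only 10.2% had one in all 3, so low recurrence is common among weak summits.

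The genes with a relaxed summit in all replicates were Lcp9 and Cpr73D. At Lcp9 in replicate 2 this was a weak summit with signal 10.9 and rank 25558, because the strong one beside CG3594 lay beyond the limit. Cpr73D is a single gene that overlaps Ogdh, the gene of a subunit of 2-oxoglutarate dehydrogenase. An IDR summit inside Cpr73D, with signal 5525 and rank 612, lay 49 bp from an Ogdh start and 2238 bp from the nearest Cpr73D start. The weak summits at the Cpr73D start itself had signals of 15.1, 23.1 and 10.6 in replicates 1, 2 and 3, and lay 102, 78 and 87 bp from another Ogdh start. After Lcp9, the strongest pooled relaxed summit at a cuticle gene start was at Cpr67B, with signal 40.5 and rank 11504. Cpr51A followed with 32.1, Cpr78Ca with 31.1 and Cpr31A with 29.9. Next came Cpr47Ef with 26.7, Cpr65Ec with 23.1 and Cpr47Eg with 22.4. Cpr78Cb had 18.8 and Cpr30F had 17. Apart from Lcp9, the 12 genes had signals of 15.6 to 40.5, on both sides of the median of that list, 30.3. The deposited −log10 q-values of these summits were low. They were 2.04 at Cpr67B, 1.3 at Cpr51A and less at the others, down to 0.356 at Cpr65Au, against 4.24 at Lcp9. Such summits may be background. Cpr31A, whose weak summit this was, had a strong IDR summit 954 bp beyond its other end, with signal 4209, at the start of Pen, which encodes an importin.

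Pcp, the pupal cuticle protein gene, lies inside an intron of Gart, which encodes an enzyme of purine synthesis. The nearest IDR summit was 5726 bp from the Pcp start and 3510 bp from the nearest Gart start, so neither gene was bound. Relaxed summits lay 229 and 173 bp from the Pcp start in replicates 2 and 3, with signals of 16 and 13.3, and 546 bp away in replicate 1. The next neighbours, CG31908 and MME1, were both bound, with a summit 19 bp and 118 bp from their starts.

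Cuticle genes lie mainly on 3L, with 47, and on 2R, with 26, while 14 lie on 3R, 6 on 2L, 4 on X and 0 on chromosome 4. No IDR summit fell inside any of the 14 clusters, which cover 242 kb in all and run between 4.7 and 38.5 kb each. A count of 0 allows up to 1.24 summits per 100 kb, for counting error only, and the arms as a whole held 4.53 per 100 kb, which would be 11 summits in that length. The 6070 strongest regions of each replicate also gave 0 summits inside. Of the 14 other coding genes that overlap the clusters 0 were bound, against 43.7% of all coding genes. This follows largely from the absence of IDR summits inside, because 12 of the 14 lie wholly within a cluster. The pooled relaxed list had 13 summits inside, 5.36 per 100 kb against 22.4 over the arms, in 4 of the 14 clusters. The replicate lists had 19, 7 and 31, a mean of 7.84 ± 4.95 per 100 kb inside, against 21.5 ± 1.51 over the arms (SD, n = 3). The lists of replicates 2 and 3 both hold 30000 summits, so their density over the arms is set by that length. The small counts inside also carry counting error, so these SDs cannot be compared.

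**Figure D3:**
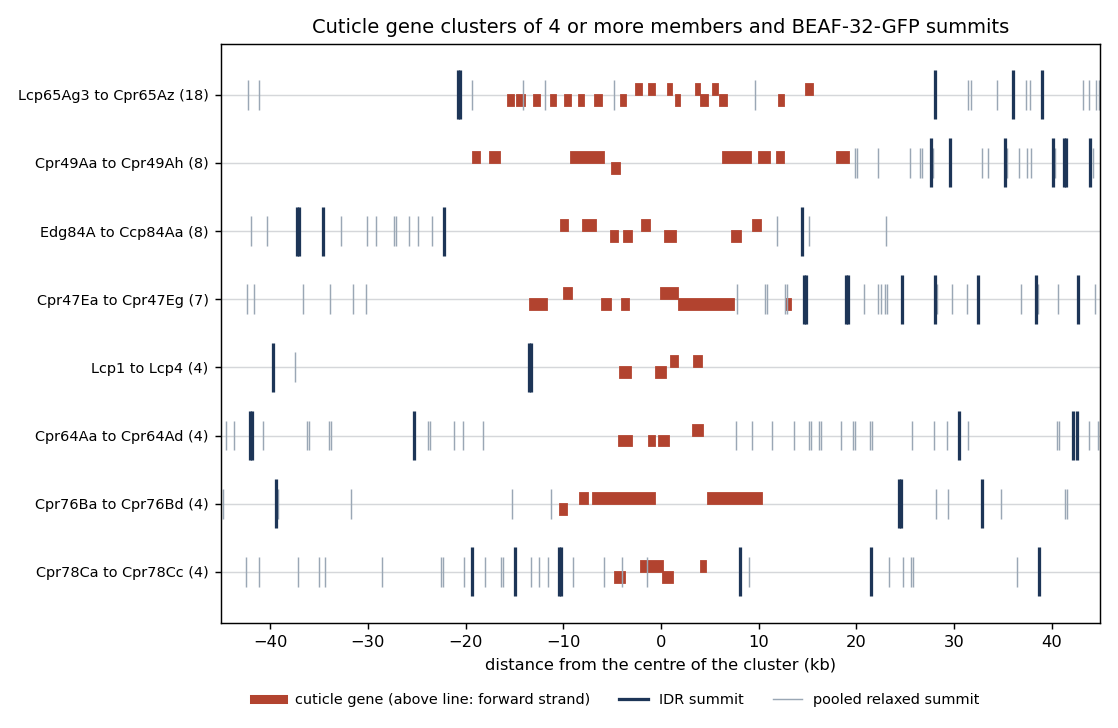
Map of the 8 clusters of 4 or more cuticle genes (number of genes in brackets), in kb from the centre of each cluster. Red boxes are cuticle genes, above the line on the forward strand and below it on the reverse strand, tall dark lines are IDR summits and short pale lines are pooled relaxed summits; every dark line lies outside the red boxes' span.

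The strongest summit inside a cluster was at 65E. It lay 793 bp from the start of Cpr65Ec, between genes, with signal 101 and rank 6935 of the pooled relaxed list, below the IDR limit. It was the only one of the 13 with a summit within 100 bp in all 3 replicates, where the signals were 41, 29.2 and 40.5. For 7 of the 13, no replicate list had a summit within 100 bp, which held for 22.8% of all pooled relaxed summits below the IDR limit. In the 47E cluster the strongest of 5 summits, with signal 42.9, lay 474 bp from the start of TpnC47D, a troponin C gene that is no cuticle gene. The 65A cluster, the largest with 18 genes, had 4 pooled relaxed summits of signal 15.6 to 33.7.

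A short cluster without a bound gene is not rare by itself, whereas runs as long as the largest clusters seldom lacked one. The shares below are for single runs, while all 14 clusters were empty. Of all runs of 3 consecutive coding genes, 33.7% had no bound gene, and of runs of 8, as long as the 84A cluster, 14.6% had none. For the 19 consecutive coding genes of the 65A cluster the share was 3.38%, for the 15 at 49A it was 5.56% and for the 10 at 47E it was 11%. Several starts in the 65A cluster are near-identical copies, as described below. The gaps between IDR summits that hold the clusters ran between 18.3 and 231 kb with a median of 58 kb, against a median of 5.28 kb over all 6064 gaps. Counted by bases, however, gaps of 83.4 kb or longer hold 50% of the length, and 4 of the 14 cluster gaps exceeded that. That length includes very long gaps, up to 1155969 bp. The clusters thus lay in long gaps of a kind that takes up much of the genome.

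The nearest IDR summits outside the clusters were usually not close. Over the 28 edges the median distance was 13254 bp (424 to 176220 bp), and 15226 bp over the 48 edges of single genes. Over 27676 edges of other coding genes it was 6632 bp. Within 5000 bp of an edge lay a summit at 6 of 28 cluster edges (21.4%), at 13 of 48 edges of single genes (27.1%) and at 46.1% of other genes' edges. At 11 cluster edges the summit was over 20000 bp away. A median of 2.5 other coding genes (0 to 20) lay between the edge and its summit, and the first gene outside was itself bound at 5 of the 28 edges (17.9%), against 21 of 48 (43.8%) for single cuticle genes.

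**Figure D4:**
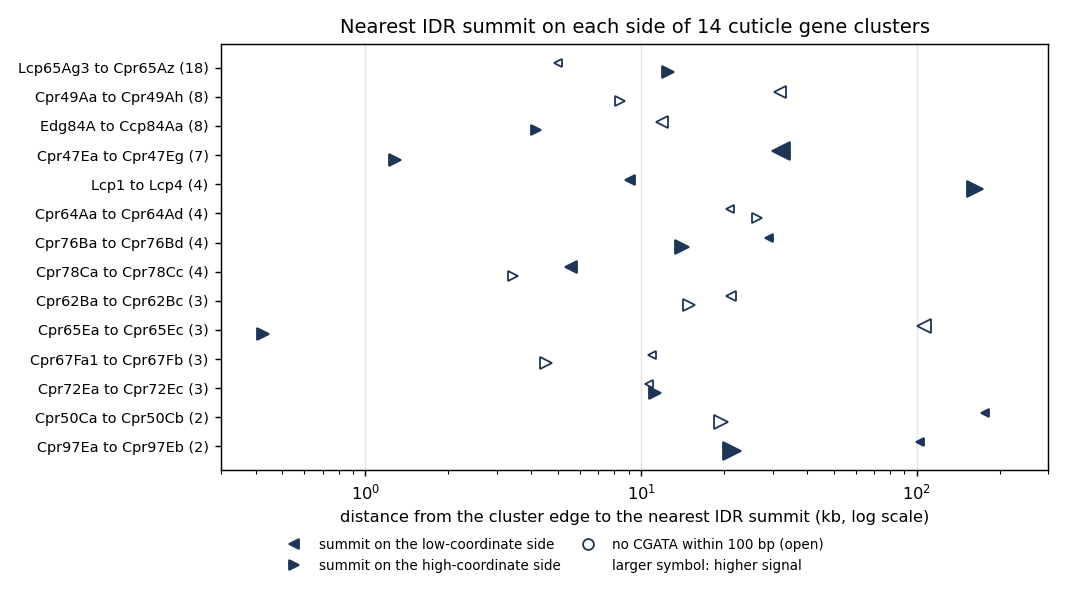
Distance in kb, on a log axis, from each edge of the 14 clusters to the nearest IDR summit outside (number of genes in brackets), with open symbols where no CGATA lies within 100 bp and larger symbols for a higher signal. The 28 summits lie between 424 and 176220 bp away, and 6 of them within 5000 bp.

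The flanking summits lay mostly at gene starts, as IDR summits in general did. Of the 28, 23 (82.1%) lay within 500 bp of a coding start, against 85.9% of all IDR summits, and 14 were within 500 bp of starts of at least 2 genes. CGATA within 100 bp was found at 14 (50%), against 58.3% of all IDR summits, but within 200 bp the order turned, with 75% against 70.3%. TATCGATA within 100 bp was found at 4 (14.3%), against 16.9%. Their signals were 171, 596 and 6217 at the lowest, median and highest, beside a median of 579 in the whole list. Among the strongest regions of all 3 replicates were 22 of them (78.6%), against 79.8% of all IDR summits.

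At the 65A cluster, which runs between Lcp65Ag3 and Cpr65Az, the low-coordinate summit was 4997 bp out, inside a coding exon of l(3)mbn and 3418 bp from that gene's nearest start, with signal 232. The high-coordinate summit was 12462 bp out with signal 1124, at the starts of fmt and CG7376. At the 84A cluster, which runs between Edg84A and Ccp84Aa inside the Antennapedia complex of Hox genes, both summits lay in introns of neighbouring Hox genes. They were 11927 bp out in lab, with signal 594, and 4170 bp out in pb, with signal 321, and no coding start lay within 500 bp of either. The 76B cluster, between Cpr76Ba and Cpr76Bd, had TATCGATA at both flanking summits. Their signals were 215 at 29067 bp, where the nearest start was that of CG32212 at 925 bp, and 1621 at 14046 bp, at the starts of Ltn1 and CG9300.

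The 78C cluster, between Cpr78Ca and Cpr78Cc, was the one of these 8 with a bound gene next to it on both sides and no gene between. Its summits were 5575 bp out at pzg and CG12974, with signal 1035, and 3423 bp out at CG11309 and CG7632, with signal 431. The 64A cluster, between Cpr64Aa and Cpr64Ad, had summits 20957 bp out at VhaM9.7-c, a proton pump subunit gene, with signal 231, and 26270 bp out at pav, a kinesin gene, with signal 535. At 65E the summit with 3 copies of CGATA was 424 bp from the cluster, the shortest distance of the 28, with signal 598, and lay 553 bp from the start of form3. The opposite summit of that cluster was 105887 bp away at Galphai, a G protein gene, with signal 1453.

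The 3 large clusters on 2R were each nearer to a summit on one side. Lcp1 to Lcp4 had a summit 9087 bp out at CSN7, a signalosome subunit gene, with signal 415, which was among the strongest regions of 2 replicates. The summit on the other side was 161849 bp away, at rgr and Lnpk, with signal 3221. The 47E cluster, Cpr47Ea to Cpr47Eg, had a summit 1283 bp out at Vhl and CG9067, with signal 841, and another 32274 bp out at Syx6 and CG9084, with signal 5327. The 49A cluster, Cpr49Aa to Cpr49Ah, had a summit 8352 bp out at CG8520, with signal 293, and another 31759 bp out at ana3 and CG8839, with signal 811. The clusters at 50C and 97E, with 2 genes each, had their low-coordinate summits 176220 and 102490 bp away. The summit at 97E, with signal 171, was among the strongest regions of 0 replicates.

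Around the 14 clusters, the density of IDR summits was near that of the arms up to 10 kb out and higher beyond. That of pooled relaxed summits was below the arms up to 10 kb out. There were 5 IDR summits per 100 kb at 0 to 5 kb (7 summits) and 5.71 at 5 to 10 kb (8 summits). There were 7.5 at 10 to 20 kb (21 summits) and 6.79 at 20 to 50 kb (57 summits), against 4.53 over the arms. The arm value counts all bases of the arms, also those in gaps of up to 1155969 bp between IDR summits. It is thus a low baseline for stretches that hold genes. The classes up to 10 kb rest on too few summits to show an excess at the edges. Pooled relaxed summits numbered 15.7, 18.6, 28.6 and 31 per 100 kb in the same classes, against 22.4 over the arms. Of other coding genes starting there, 5 of 23 (21.7%) were bound at 0 to 5 kb, 6 of 25 (24%) at 5 to 10 kb, 22 of 65 (33.8%) at 10 to 20 kb and 66 of 145 (45.5%) at 20 to 50 kb. With the 6070 strongest regions of each replicate these shares were 21.7% ± 0, 24% ± 0, 32.3% ± 2.66 and 43.2% ± 2.79 (SD, n = 3). The share bound among genes beside the clusters thus stood below that of all coding genes up to 20 kb out.

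**Figure D5:**
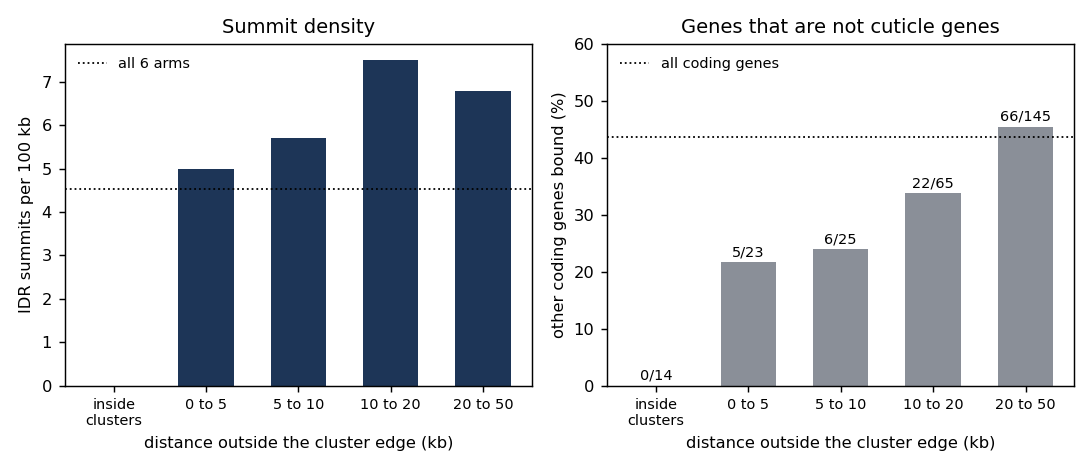
IDR summits per 100 kb (left) and percent of coding genes other than cuticle genes that were bound (right, bound over all genes above each bar), inside the 14 clusters and by distance in kb outside their edges; dotted lines are the values over all 6 arms and all coding genes. Both panels are at 0 inside, where the right value follows largely from the left one, and the right panel reaches 45.5% at 20 to 50 kb.

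A divergent pair means neighbours on opposite strands whose outermost starts face outward and lie up to 1000 bp apart. Such pairs held 12 cuticle genes (12.4%), against 33.3% of all coding genes. Of the 12 cuticle genes in such pairs 1 was bound, against 76.9% of all coding genes in them. Of the 85 cuticle genes outside them 0 were bound, against 27.1% of all coding genes outside them. There were 8 such pairs with a cuticle gene. Both genes were cuticle genes in Lcp2 with Lcp3, Ccp84Ad with Ccp84Ae, Cpr65Aw with Lcp65Ad, and Cpr65Ax2 with Lcp65Aa. The remaining pairs were Cpr23B with CG3119, Edg78E with CG43702, Lcp9 with CG3594 and Cpr60D with ND-19. Of the 8 pairs, the last 2 had an IDR summit at 1 start or both, against 1956 of 2401 divergent pairs (81.5%) without a cuticle gene. In the pair of Cpr60D only ND-19 was bound.

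CGATA, searched on both strands within 200 bp of a gene's outermost start, was present at 43 cuticle genes (44.3%), against 54.2% of all coding genes. TATCGATA was searched at the same start, whereas bound calls used any start of a gene. Of these 43 cuticle genes 1 was bound, against 54.9% of all coding genes with the string. No copy was found at 54 cuticle genes (55.7%), against 45.8% of all coding genes, and a single copy at 35 (36.1%), against 26.3%. There were 2 copies at 7 cuticle genes (7.22%), against 13.8% of all coding genes, and at least 3 at 1 (1.03%), against 14.1%. The gene with at least 3 was Cpr67Fa2, which was unbound, 7514 bp from an IDR summit, whereas 85.5% of all coding genes with at least 3 copies were bound. TATCGATA was present at Cpr49Af and Cpr78Ca, named after their values were seen. Neither was bound, against 92% of the 1273 coding genes with it. The nearest IDR summits to Cpr49Af and Cpr78Ca were 17590 and 6515 bp away. Cpr76Bb and Cpr78E, whose upstream sequences are shown above and which were also chosen after their values were seen, were 31164 and 12926 bp from an IDR summit.

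Some cuticle gene starts are near-identical copies, at which reads may not map to 1 place, and the sources used here do not say how such reads were treated. At 11 of the 97 (11.3%), under 90% of the 32-base words within 500 bp of the outermost start occur once in dm6. This held for 4.24% of all coding genes. The lowest were Lcp65Ab1 and Lcp65Ab2, with 9.9% each, and Cpr65Ax1 and Cpr65Ax2, with 23.8% and 27.9%. Lcp65Ag1, Lcp65Ag2 and Lcp65Ag3 had 59.3%, 61.6% and 62.6%, and Lcp1 had 89.5%. Among genes at or above 90%, 1 of 86 cuticle genes (1.16%) was bound, against 45% of coding genes.

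Other genes of the cuticle differed by class. Of 25 Tweedle genes, which encode another cuticle protein family, 0 were bound, and of 10 obstructor and gasp genes, whose products bind chitin, 0 were bound, for instance Gasp at 91195 bp and obst-A at 3490 bp from an IDR summit. Of 11 tanning and pigment genes 0 were bound, among them Ddc, the dopa decarboxylase gene, at 3577 bp. Of 16 genes with Cht (chitinase) or Idgf symbols, taken as 1 class, 2 were bound. They were Cht11 with signal 1765 and Cht2 with signal 1405, and no Idgf gene was bound. Of 15 genes of chitin synthesis and assembly 4 were bound (26.7%), the strongest being rtv with 2650, mmy with 474 and Cda5 with 413. Of 17 regulators of cuticle genes and of the ecdysone response 5 were bound (29.4%), led by the nuclear receptor genes usp with 6252 and ftz-f1 with 6178 and the zinc finger gene crol with 4939, while br and EcR were 42298 and 2184 bp from a summit. Each class gave the same count of bound genes in the strongest regions of each replicate. The background for all these counts is the 43.7% of all coding genes.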

How the data were processed

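Peak lists from 3 biological replicates of 1 group were used as deposited by the authors, on dm6. Per the file headers, each replicate and the pooled replicates, each with a control alignment, gave a relaxed list, from which an IDR list was made. The authors deposited a signal per peak, on a scale that is not stated, and signals were ranked within a list only. The authors' −log10 q-value per peak was read but not ranked. The sources used here give no aligner, peak caller, version, threshold or depth, so no interval was set on single peaks. Lists on dm3 were not used.

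Genes and starts came from Ensembl BDGP6.54, release 115, and bases from the RefSeq genome of the same assembly. Signals and positions were read with Python 3.11.15, numpy 2.4.6, pandas 2.3.3 and matplotlib 3.10.9. A summit was the deposited offset added to the region start, counted from 1. A summit counted as found in a replicate when it lay inside one of the 6070 strongest regions of that replicate. Cluster edges were the outer ends of the first and last gene. Counting was checked on made-up positions with known answers. Columns of other samples in the lists numbered 0.

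The cuticle genes and the other gene lists were chosen with earlier results of these data known, so no test or p-value was given, and counts stand beside those over all coding genes. Named genes were the bound cuticle genes, the first and last gene of clusters of at least 4, genes at the summits flanking those clusters, the up to 10 highest relaxed signals, divergent pairs, starts with at least 3 CGATA, near-identical copies, Pcp and Gart, and in other lists up to 3 bound genes by signal and up to 3 unbound by alphabet; not all of these are reported here. Genes outside this rule, such as those at Lcp9, Cpr60D, Cpr73D, Cpr31A, TpnC47D and the 50C, 65E and 97E clusters, were chosen after their values were seen. The alternatives varied the window, the cluster gap, the peak list, the distance for CGATA and the replicates used.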

Additional observations from a re-analysis of the deposited data

How the results depend on the processing

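The share of cuticle genes with a summit at a start, 1.03%, became 0% with a window of 250 bp, with the stronger part of the IDR list (3035 summits) and with starts required to lie inside a peak region, 2.06% with 1000 bp and 12.4% with the pooled relaxed list. Over all coding genes those settings gave 39.4%, 28.5%, 41%, 46.3% and 59.7%. The mean over replicates, 0.687%, was 0% with 3035 regions of each and 12.4% with whole relaxed lists, and 0.515% to 1.03% with 1 replicate left out. Summits inside clusters, 0 per 100 kb, became 0.39 with clusters widened by 500 bp, through the summit 424 bp from the 65E cluster, and 5.36 with the pooled relaxed list. They stayed at 0 with gaps of 10000 and 50000 bp. The median edge distance, 13254 bp, was 14505 bp with a gap of 10000 bp, 14011 bp with single genes included, 23332 bp with the stronger part of the list, 11590 bp with the pooled relaxed list and 14505 bp with summits found in every replicate, beside an SD of 715 bp between replicates. CGATA at edge summits, 50%, was 28.6% within 50 bp and 75% within 200 bp, against 45.3% and 70.3% of all IDR summits, so the order of the shares depends on the distance. No paired analysis was possible because the libraries form 1 group. Read depth is unknown, and weak binding below the relaxed lists was not detectable here.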
